A study of Mus musculus with 20 samples.

Results

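The insulin-like growth factor (IGF) axis was described through 10 genes: the ligands Igf1 and Igf2, the receptors Igf1r and Igf2r, and the binding proteins Igfbp2, Igfbp3, Igfbp4, Igfbp5, Igfbp6 and Igfbp7. Members were all probe sets that the array's annotation assigns to these symbols, which gave 29 of the 45037 probe sets that are not controls, and 10 of 18193 genes. Of the 29, 28 carried 1 symbol and 1, an Igf2r probe set, also carried Airn, the antisense RNA of that locus. The series compared clonal lines of mouse Swiss 3T3 fibroblasts, an immortalized embryonic line, to find genes that mark cells committed to become adipocytes. The preadipose class held the lines Swiss 2, Swiss 8 and Swiss 9 with 3 arrays each and Swiss 19 with 2 arrays. The non-adipogenic class held Swiss 3, Swiss 5 and Swiss 22 with 3 arrays each. All 7 lines were grown in the same medium with bovine serum, under conditions that do not induce differentiation, and were harvested before they stopped dividing. Every line is a single clone, so a class difference is a difference between 4 and 3 clones. Separate cultures behind the arrays of 1 line are not mentioned in the labels, so p-values made from arrays measure only the spread between these arrays, which may be technical.

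Both IGFs are secreted growth factors that signal through the tyrosine kinase Igf1r, while Igf2r, the mannose 6-phosphate receptor, carries Igf2 to lysosomes for breakdown. The binding proteins hold IGFs outside the cell, lengthen their lifetime and limit or release them to the receptor, and proteases such as pappalysin cut them. In cultured fibroblast lines, signalling by Igf1 or insulin through Igf1r is a known requirement for adipocyte differentiation.

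Array brightness differed between lines. Mean deposited intensity ran from 25.6 to 156.7 between arrays, a ratio of 6.11, and values were therefore scaled in 2 ways. Levels below are scaled intensities, with each array brought to a trimmed mean of 500. Tests used quantile-normalized log2 values, and a log2 difference is preadipose minus non-adipogenic unless a pair of lines is named. By the level of 9 hybridization-spike probe sets, 11 arrays were dim and 9 bright. Swiss 2, Swiss 8 and Swiss 9 lay wholly on dim arrays, Swiss 19, Swiss 5 and Swiss 22 wholly on bright ones, and Swiss 3 had 2 dim arrays and 1 bright. The background of a line was taken from 27 unspiked bacterial control probe sets and lay between 76.9 and 144 in scaled intensity. All 6 fibroblast markers were above background in all 7 lines, and their summed intensity was 228900 to 275900 in preadipose lines and 185100 to 208800 in non-adipogenic lines. Markers of other cell types were partly above background and low beside these. Of 3 leukocyte markers Cd68 and Adgre1 were above background in all 7 lines and Ptprc in none, with a summed intensity of 279 to 635 in preadipose and 361 to 586 in non-adipogenic lines. Of 3 epithelial markers Epcam and Krt8 were above it in all 7 lines, by their brightest probe sets, and Cdh1 in none (sums of 628 to 961 and 704 to 1094). Of 3 endothelial markers Cdh5 and Kdr were above it in 3 of 4 preadipose and 3 of 3 non-adipogenic lines and Pecam1 in none (264 to 462 and 407 to 567). Of 3 muscle markers Ckm was above it in all 7 lines, Myod1 in 1 of 4 preadipose and 3 of 3 non-adipogenic lines, and Myog in none (346 to 630 and 380 to 527). Of 2 adipocyte markers Adipoq was above it in 0 of 4 preadipose and 1 of 3 non-adipogenic lines, Swiss 3, and Cidec in none (35.6 to 99.03 and 39.5 to 232). None of these markers of other cell types passed the class test, and their part in the results was not tested.

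Between the classes, Igfbp4 was the member gene that passed the test: it was higher in preadipose lines, in 5 of its 6 probe sets. These 5 were 5 of the 29 member probe sets, while 0.819% of all probe sets passed in either direction and 0.275% passed as higher (limma on 7 line means, Benjamini-Hochberg adjustment over all probe sets, threshold 0.05). By gene this was 1 of 10 members, where 1.19% of all genes passed. No member probe set passed as lower, where 0.544% of all probe sets did. Classes were fully separated by their line means for 7 member probe sets upward in preadipose lines and 5 downward, where 5.41% and 6.14% of all probe sets were. An unadjusted p below 0.05 was reached by 12 of the 29, where 12.6% of all probe sets reached it. The median log2 difference of the members was -0.01, beside 0.01 for all probe sets, and the median size was 0.25, beside 0.06. Of the 29 probe sets, 28 were above background in at least 1 line and 20 in all 7, where 75.1% and 42.9% of all probe sets were. Among probe sets above background in all 7 lines the median size was 0.33 for members and 0.12 for the whole table. In bulk RNA, fewer cells of a type and less RNA per cell cannot be told apart.

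**Figure D1:**
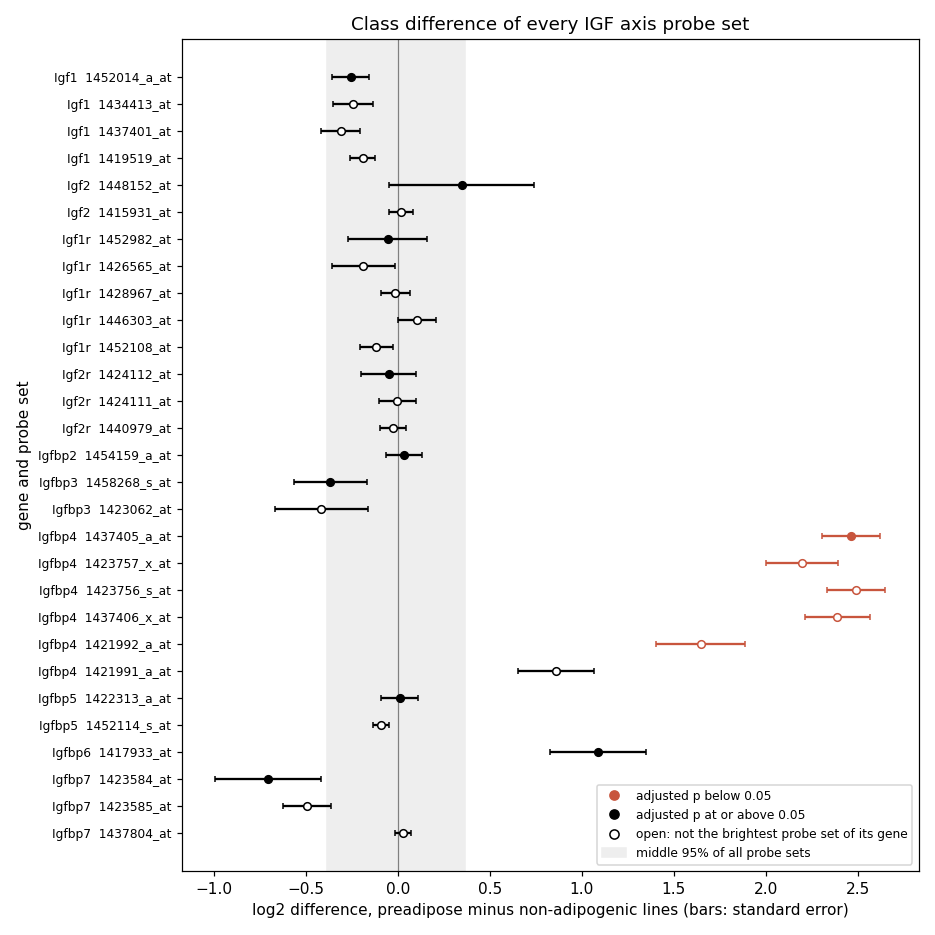
Log2 difference of each of the 29 member probe sets, preadipose minus non-adipogenic lines, with bars for the standard error (limma on 4 and 3 line means). Filled points are the brightest probe set of a gene with 1 symbol, red marks an adjusted p below 0.05, and the grey band holds the middle 95% of all probe sets. The 6 Igfbp4 probe sets lie at 0.86 to 2.49, Igfbp6 lies at 1.09, and the lowest point is Igfbp7 at -0.71.

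Of the ligands, Igf1, the main mediator of growth hormone, was low and even among preadipose lines and stood highest in Swiss 3. Its brightest probe set had 249 ± 60.8 (Swiss 2), 313 ± 30.5 (Swiss 8), 271 ± 48.5 (Swiss 9) and 269 ± 19.6 (Swiss 19) in preadipose lines, against 601 ± 101 (Swiss 3), 345 ± 60.7 (Swiss 5) and 320 ± 57.7 (Swiss 22) in non-adipogenic lines. These are scaled intensities with the SD over 3 arrays, or 2 for Swiss 19, here and for the other members. The 4 preadipose line means lay below the 3 non-adipogenic ones, at 275 ± 26.6 in preadipose and 422 ± 156 in non-adipogenic lines on average (SD over 4 and 3 lines), but Swiss 8 and Swiss 22 were close to each other. The difference did not pass the class test, with a log2 difference of -0.26 ± 0.10 (SE) and a limma adjusted p of 0.341. Without Swiss 3 the difference was -0.14 (adjusted p = 0.568). In the order of the lines, the step between Swiss 3 and Swiss 5 passed (log2 difference 0.35, adjusted p = 0.0113), and no step below it did. All 4 Igf1 probe sets had a negative class difference, from -0.31 to -0.19, and Swiss 3 also led on the other Igf1 probe set above background in all lines, with 449 ± 68.0.

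Igf2, the fetal growth factor expressed from the paternal allele, was far higher in 1 preadipose line than in any other line. Its brightest probe set had 175 ± 176 (Swiss 2), 375 ± 156 (Swiss 8), 273 ± 16.2 (Swiss 9) and 1550 ± 80.1 (Swiss 19) in preadipose lines, against 245 ± 94.8 (Swiss 3), 98.5 ± 75.3 (Swiss 5) and 561 ± 109 (Swiss 22) in non-adipogenic lines. The arrays of Swiss 19 read 1607 and 1494, above the highest array of any other line, 686 in Swiss 22. Swiss 19 exceeded Swiss 22 by 0.93 ± 0.19 (SE) on the log2 scale (adjusted p = 0.00309), and the steps between neighbours below Swiss 22 did not pass. Lines further apart did differ: Swiss 22 exceeded Swiss 2, Swiss 3 and Swiss 5 (adjusted p = 0.00804, 0.0383 and 0.0025), and Swiss 8 exceeded Swiss 5 (adjusted p = 0.0429). The other Igf2 probe set was above background in Swiss 19 alone, at 161 ± 142. The classes overlapped and did not differ past the threshold (593 ± 643 in preadipose and 302 ± 237 in non-adipogenic lines, log2 difference 0.35 ± 0.40, adjusted p = 0.838). Without Swiss 19 the class difference was -0.01. Among the preadipose lines Igf2 differed (F test, adjusted p = 4.8e-05), whereas the adjusted p was 0.208 among Swiss 2, Swiss 8 and Swiss 9, the lines measured on dim arrays. Igf2 also differed among the non-adipogenic lines (F test, adjusted p = 0.00561). On the bright arrays alone, Swiss 19 stood 1.46 above the mean of the non-adipogenic lines (adjusted p = 0.505, with the lone preadipose line assumed to vary like the others).

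The signalling receptor Igf1r was highest in Swiss 19 and lowest in Swiss 9, both preadipose lines. It had 2160 ± 83.6 (Swiss 2), 2062 ± 233 (Swiss 8), 1497 ± 315 (Swiss 9) and 3576 ± 110 (Swiss 19) in preadipose lines, against 2484 ± 299 (Swiss 3), 2277 ± 85.0 (Swiss 5) and 2326 ± 141 (Swiss 22) in non-adipogenic lines. The preadipose lines thus spanned the whole range, and the non-adipogenic lines lay close together inside it. Swiss 19 exceeded the next line, Swiss 3, by 0.42 ± 0.11 (adjusted p = 0.019), and Swiss 8 exceeded Swiss 9 by 0.37 ± 0.10 (adjusted p = 0.0221). The steps in between, from Swiss 3 through Swiss 22, Swiss 5 and Swiss 2 to Swiss 8, did not pass. The class difference was -0.06 ± 0.21 (adjusted p = 0.967), and its sign turned to 0.07 with array brightness as a block and to 0.58 on the bright arrays alone. The preadipose lines differed with all 4 lines (adjusted p = 3e-05) and with the dim lines Swiss 2, Swiss 8 and Swiss 9 alone (adjusted p = 0.00996). Across the 7 line means, the other 4 Igf1r probe sets correlated with this one at r = 0.62 to 0.95. On the next brightest, Swiss 19 was also highest and Swiss 9 lowest. There the steps from Swiss 19 to Swiss 3 and from Swiss 8 to Swiss 9 did not pass (adjusted p = 0.659 and 0.128). The preadipose lines differed on it (F test, adjusted p = 0.00418) but not on the dimmer ones (adjusted p = 0.299, 0.513 and 0.601).

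Igf2r, the clearing receptor, was lowest in Swiss 8, a preadipose line. It had 2263 ± 187 (Swiss 2), 1328 ± 128 (Swiss 8), 2044 ± 111 (Swiss 9) and 2237 ± 303 (Swiss 19) in preadipose lines, against 2309 ± 300 (Swiss 3), 1931 ± 228 (Swiss 5) and 1900 ± 19.7 (Swiss 22) in non-adipogenic lines. All 3 arrays of Swiss 8 lay below every other array. Swiss 22 exceeded Swiss 8 by 0.35 ± 0.10 on the log2 scale (adjusted p = 0.0264), and none of the other 5 steps in the order passed. The class difference was -0.05 ± 0.15 (adjusted p = 0.955), and without Swiss 8 it was 0.08. A dimmer probe set of Igf2r alone, above background in all 7 lines, was also lowest in Swiss 8, at 625 ± 73.5. There Swiss 5 exceeded Swiss 8 by only 0.02 (adjusted p = 0.985). The preadipose lines differed on the brightest probe set (F test, adjusted p = 0.00087) but not on this dimmer one (adjusted p = 0.71). The probe set shared with Airn did not follow the profile of the brightest one (r = -0.19 over 7 lines). Nothing in the sources used here says whether its signal comes from Igf2r or from the antisense RNA.

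**Figure D2:**
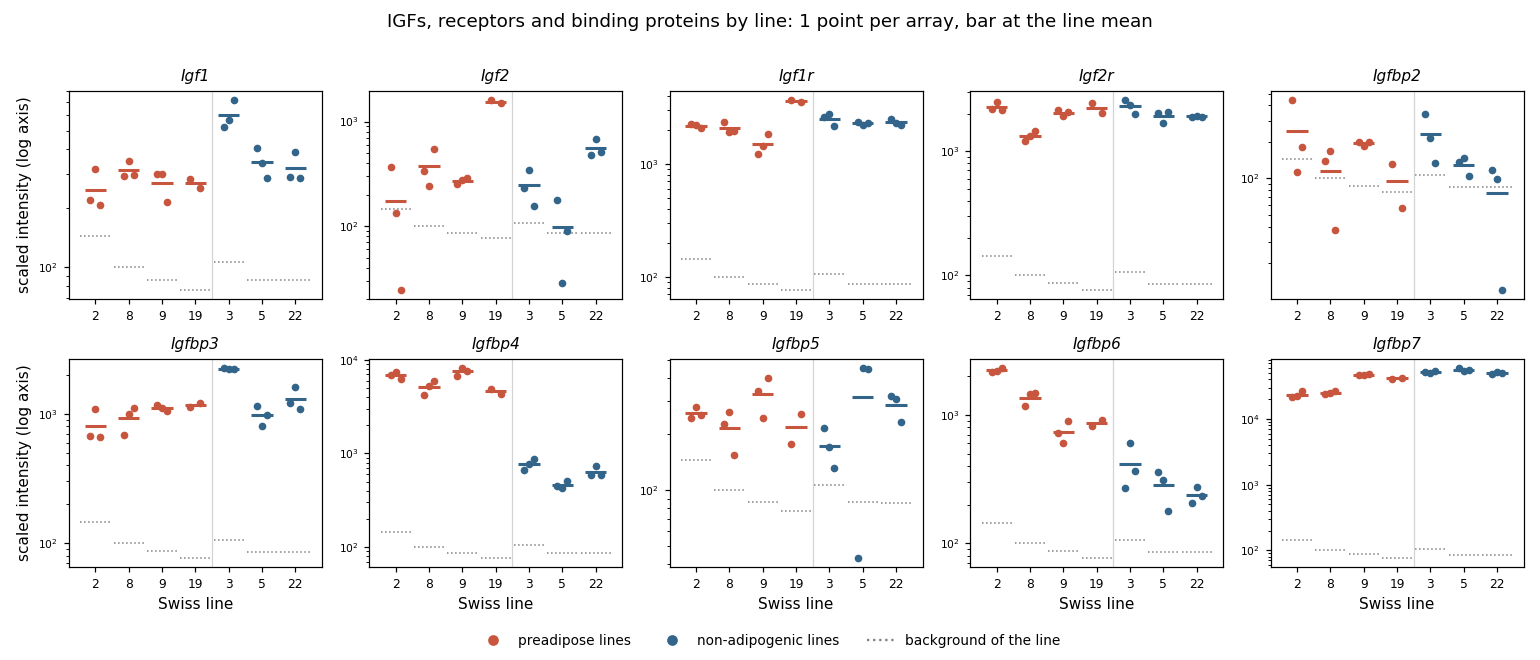
Scaled intensity of the brightest probe set of each member on every array (points), with a bar at the line mean, for preadipose lines (red) left of non-adipogenic lines (blue); y axes are logarithmic and differ between panels, and dotted lines mark the background of each line. Igfbp4 and Igfbp6 separate the classes, Igf2 and Igf1r are highest in Swiss 19, Igf1 and Igfbp3 in Swiss 3, and Igfbp7 is lowest in Swiss 2 and Swiss 8.

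Igfbp4, a secreted protein that mostly restrains IGF action until it is cut by pappalysin, was 9.68-fold higher in preadipose lines. Its brightest probe set had 6893 ± 565 (Swiss 2), 5115 ± 843 (Swiss 8), 7511 ± 705 (Swiss 9) and 4634 ± 428 (Swiss 19) in preadipose lines, against 772 ± 103 (Swiss 3), 464 ± 45.3 (Swiss 5) and 636 ± 78.5 (Swiss 22) in non-adipogenic lines. The lowest preadipose array read 4205, in Swiss 8, and the highest non-adipogenic array read 876, in Swiss 3. The classes did not overlap, and each non-adipogenic line was still above background. Class means were 6038 ± 1381 in preadipose and 624 ± 155 in non-adipogenic lines (SD over 4 and 3 lines), with a log2 difference of 2.46 ± 0.16 and an adjusted p of 0.00674. Only 0.0111% of all probe sets had a larger log2 difference in size.

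The size of the fold depended on the Igfbp4 probe set. It was 7.99-fold, 11.7-fold, 11.5-fold and 7.27-fold on the other 4 that passed, in order of falling mean level, with adjusted p up to 0.0359. The first 3 of these carry suffixes (x, s and x) that the array maker gives to probe sets sharing probes with other transcripts or sequences. Such suffixes also mark the brightest probe sets of Igfbp3, Igf2bp3 and Ghr (s) and of Eif4ebp1 and Plagl1 (x), given below. The dimmest was above background in 4 of 4 preadipose and 0 of 3 non-adipogenic lines, at least 4.97-fold higher, and did not pass (adjusted p = 0.129). Within the preadipose class, Swiss 2 exceeded Swiss 8 by 0.43 (adjusted p = 0.014), while the steps between Swiss 9 and Swiss 2 and between Swiss 8 and Swiss 19 did not pass. The largest step in the order, 2.01 between Swiss 19 and Swiss 3, was the boundary between the classes (adjusted p = 3.91e-09). The F test over the 3 non-adipogenic lines did not pass on the brightest probe set (adjusted p = 0.0713), though it did on the next brightest (adjusted p = 0.0284). As a pair, Swiss 3 exceeded Swiss 5 by 0.38 on the brightest probe set (adjusted p = 0.0317).

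The Igfbp4 difference was similar in both brightness parts. It was 2.43 on dim arrays (Swiss 2, Swiss 8 and Swiss 9 against Swiss 3) and 2.15 on bright arrays (Swiss 19 against all 3 non-adipogenic lines). With brightness as a block it was 2.29 (limma, adjusted p = 0.00801). That fit took the dim and the bright arrays of Swiss 3 as separate units without a term for line, so this clone counted more than once. Median centring of the arrays in place of quantile normalization gave 2.11 (adjusted p = 0.465) and no normalization gave 1.98 (adjusted p = 0.939). The summed fibroblast markers, also higher in every preadipose line, moved with this difference, and their part in it was not tested. By their brightest probe sets, Col1a1, Col1a2, Col3a1 and Vim had class differences of 0.23, 0.21, 0.25 and 0.48. Thy1 and Pdgfrb went the other way (-0.33 and -0.17), and none of the 6 passed by these probe sets. Dimmer collagen probe sets took both signs, and 2 dimmer Vim probe sets passed as higher.

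Igfbp6, which prefers Igf2 over Igf1, was the other binding protein whose classes did not overlap upward. It had 2233 ± 84.8 (Swiss 2), 1370 ± 172 (Swiss 8), 738 ± 147 (Swiss 9) and 867 ± 59.1 (Swiss 19) in preadipose lines, against 415 ± 173 (Swiss 3), 284 ± 93.1 (Swiss 5) and 237 ± 34.2 (Swiss 22) in non-adipogenic lines. Only at the level of arrays did the classes touch: the lowest preadipose array, 601 in Swiss 9, lay just under the highest non-adipogenic array, 607 in Swiss 3. Class means were 1302 ± 678 in preadipose and 312 ± 92.4 in non-adipogenic lines, a 4.17-fold difference that did not pass the class test (log2 difference 1.09 ± 0.26, adjusted p = 0.125). It passed with a pseudocount of 8 in place of 32 (1.60, adjusted p = 0.0452). On dim arrays the difference was 1.06 (adjusted p = 0.335), and on bright arrays 0.75 (adjusted p = 0.345). Between single lines, each of the 12 pairs of a preadipose with a non-adipogenic line passed for Igfbp6, and so did each of the 12 for Igfbp4. Over all genes 12.7% of pairs passed, a share that counts all 21 pairs of lines, also those within a class. Igfbp6 was graded within the preadipose class: Swiss 2 exceeded Swiss 8 by 0.57 ± 0.13 (adjusted p = 0.00791) and Swiss 8 exceeded Swiss 19 by 0.47 ± 0.15 (adjusted p = 0.0492). The preadipose lines differed (F test, adjusted p = 2.78e-05), and Swiss 2, Swiss 8 and Swiss 9 differed among themselves on dim arrays (adjusted p = 6.3e-05). The non-adipogenic lines did not pass (adjusted p = 0.598).

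The 250 bases before the RefSeq start of these genes are shown because Igfbp4 and Igfbp6 were the members that separated every preadipose from every non-adipogenic line upward (RefSeq, build GRCm38.p6). Igfbp4 lies at chr11:99040994-99041243 and Igfbp6 at chr15:102143936-102144185, both on the plus strand. Capitals mark matches to TATAAA and CCAAT, searched on both strands with GGGCGG and CACGTG, and no marked matches overlap.

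Igfbp4: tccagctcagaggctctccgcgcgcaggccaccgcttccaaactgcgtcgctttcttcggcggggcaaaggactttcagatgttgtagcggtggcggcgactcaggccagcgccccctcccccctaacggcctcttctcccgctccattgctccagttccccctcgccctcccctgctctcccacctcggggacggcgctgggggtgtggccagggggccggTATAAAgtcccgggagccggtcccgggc

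Igfbp6: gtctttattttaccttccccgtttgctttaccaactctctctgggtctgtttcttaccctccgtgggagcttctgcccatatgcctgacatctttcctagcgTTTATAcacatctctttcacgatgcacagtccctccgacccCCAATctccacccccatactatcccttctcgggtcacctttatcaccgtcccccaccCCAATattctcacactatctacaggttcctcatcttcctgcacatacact

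The Igfbp4 window was 69.2% G and C and held TATAAA from 28 to 23 bases before the start. The Igfbp6 window was 49.6% G and C and held CCAAT at 107 to 103 and at 50 to 46 bases before the start, and TATAAA on the minus strand at 148 to 143 bases, which reads TTTATA in the printed strand. Of all 32851 windows of this length, 12.4% held TATAAA, 33.8% CCAAT, 32.7% GGGCGG and 6.02% CACGTG, and the median content of G and C was 52.4%. Neither window held GGGCGG or CACGTG. A match describes these letters and no more.

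Igfbp3, the main carrier of IGFs in serum, was highest in Swiss 3, the line that also led on Igf1. It had 809 ± 242 (Swiss 2), 932 ± 226 (Swiss 8), 1106 ± 58.4 (Swiss 9) and 1166 ± 54.9 (Swiss 19) in preadipose lines, against 2233 ± 22.8 (Swiss 3), 980 ± 177 (Swiss 5) and 1310 ± 275 (Swiss 22) in non-adipogenic lines. Swiss 5 lay among the preadipose lines, so the classes overlapped, and the class difference did not pass (-0.37 ± 0.20, adjusted p = 0.538). Without Swiss 3 it was -0.11 (adjusted p = 0.853), and without Swiss 5 -0.56 (adjusted p = 0.306). Swiss 3 exceeded the next line, Swiss 22, by 0.64 ± 0.13 (adjusted p = 0.00284). No other step passed. The second Igfbp3 probe set gave the same top line with 1711 ± 182 in Swiss 3, and it also separated the preadipose lines (F test, adjusted p = 0.00297), which the brighter probe set did not (adjusted p = 0.354). The non-adipogenic lines differed (adjusted p = 0.000242), and did so with Swiss 3 represented by its bright array alone (adjusted p = 0.0318). On dim arrays, with Swiss 3 as the non-adipogenic line, the class difference was -0.94 (adjusted p = 0.0644), and on bright arrays it was -0.23.

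Igfbp7, a secreted matrix protein that binds IGFs weakly, was lowest in Swiss 2 and Swiss 8. It had 23409 ± 2786 (Swiss 2), 25106 ± 1359 (Swiss 8), 46954 ± 974.6 (Swiss 9) and 41805 ± 1210 (Swiss 19) in preadipose lines, against 51847 ± 1362 (Swiss 3), 56470 ± 2902 (Swiss 5) and 50086 ± 2012 (Swiss 22) in non-adipogenic lines. On scaled intensity every preadipose line lay below every non-adipogenic line, but on normalized log2 values Swiss 19 lay above Swiss 3, so the classes overlapped there. Class means were 34319 ± 11830 in preadipose and 52801 ± 3297 in non-adipogenic lines, and the class difference did not pass (log2 difference -0.71 ± 0.29, adjusted p = 0.368). Swiss 9 exceeded Swiss 8 by 0.83 ± 0.08 (adjusted p = 7.7e-07), and none of the other 5 steps in the order passed. The preadipose lines differed (F test, adjusted p = 3.96e-08), and so did Swiss 2, Swiss 8 and Swiss 9 alone, all measured on dim arrays (adjusted p = 9.64e-07). The non-adipogenic lines passed with all arrays (adjusted p = 0.0281) but not with Swiss 3 taken from its bright array alone (adjusted p = 0.475). The class difference was -0.71 on dim arrays and -0.11 on bright arrays. A dimmer Igfbp7 probe set showed the same order of classes without overlap, with 245 ± 120 in preadipose and 518 ± 29.9 in non-adipogenic lines, and did not pass (adjusted p = 0.159). The dimmest Igfbp7 probe set was above background in Swiss 5 alone. It did not follow the brightest one (r = -0.24 over 7 line means) and had a class difference of 0.03 (adjusted p = 0.911).

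Igfbp2 and Igfbp5, which are neighbours on chromosome 1, differed past the threshold between no pair of lines (0 of 21 each). Igfbp2, a binding protein of fetal tissues, had 245 ± 174 (Swiss 2), 115 ± 68.9 (Swiss 8), 195 ± 10.1 (Swiss 9) and 94.7 ± 53.5 (Swiss 19) in preadipose lines, against 231 ± 103 (Swiss 3), 130 ± 22.1 (Swiss 5) and 76.5 ± 56.5 (Swiss 22) in non-adipogenic lines. It was not above background in Swiss 22 and low in every line, and arrays of the same line differed as much as the lines did. Igfbp5, a binding protein that attaches to matrix, had 259 ± 19.3 (Swiss 2), 215 ± 55.2 (Swiss 8), 328 ± 78.6 (Swiss 9) and 217 ± 56.2 (Swiss 19) in preadipose lines, against 173 ± 42.8 (Swiss 3), 314 ± 235 (Swiss 5) and 287 ± 47.4 (Swiss 22) in non-adipogenic lines. The arrays of Swiss 5 alone ran from 43.3 to 451. Class differences were 0.03 ± 0.10 for Igfbp2 and 0.01 ± 0.10 for Igfbp5 (adjusted p = 0.956 and 0.99), and their signs changed with the normalization or with a line left out. The second Igfbp5 probe set was above background in no line.

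A moderated F test of limma, run on the arrays, compared the lines of each class. It passed for 14 of 29 member probe sets among preadipose lines, where 15.3% of all probe sets passed, and for 7 of 29 among non-adipogenic lines, where 11.1% passed. By gene this was 6 of 10, namely Igf2, Igf1r, Igf2r, Igfbp4, Igfbp6 and Igfbp7, where 21.1% of all genes passed, and 4 of 10, namely Igf1, Igf2, Igfbp3 and Igfbp7, where 15.2% passed. Of the 210 comparisons of a member gene between a pair of lines, 87 passed, beside the 12.7% of pairs over all genes. Igfbp4 and Igfbp6 each passed in 17 of 21 pairs, Igfbp7 in 14, Igf1r in 11, Igf2 in 10, and Igf1, Igf2r and Igfbp3 in 6 each.

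Each gene's sum of squares was also divided into shares, without a test. For Igfbp4, 96.6% was class, 2.58% was line within class and 0.77% was array within line. For Igfbp6 these shares were 69.1%, 26.7% and 4.25%, and for Igfbp7 50.5%, 47.8% and 1.69%. For Igf2, Igf1r and Igf2r most of it, 79.3% to 84.2%, was line within class. For Igfbp2 and Igfbp5 array within line held 64.7% and 64.3%, near the median of all probe sets, 58.1%.

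**Figure D3:**
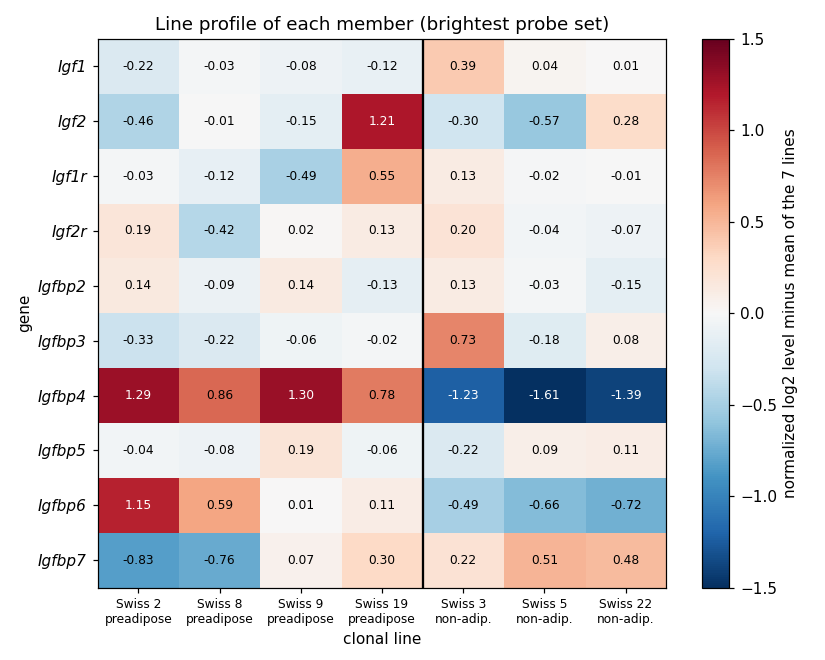
Normalized log2 level of each member in each line minus its mean over the 7 lines, for the brightest probe set of a gene, with preadipose lines left of the black line and non-adipogenic lines right of it. Igfbp4 runs from 0.78 to 1.30 in preadipose lines and from -1.61 to -1.23 in non-adipogenic lines, and Igf2 reaches 1.21 in Swiss 19.

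Profiles of members over the 7 line means were compared as a description, since the points share arrays, brightness and clones. Igf1 and Igfbp3 were most alike (r = 0.90, both led by Swiss 3), followed by Igfbp4 and Igfbp6 (r = 0.86), while Igfbp6 and Igfbp7 ran opposite (r = -0.92). Igf2 and Igf1r had r = 0.65. With 7 points, many genes lie close to any profile: of 13983 genes above background in at least 1 line, 162 had r above 0.9 with Igfbp4 and 25 with Igf2r. The closest genes were Pik3cd and Ddx47 to Igfbp4 (r = 0.988 and 0.983), Plp2 and Lcn9 to Igfbp6 (r = 0.991 and 0.990), and Atf6 and Akr1a1 to Igfbp7 (r = 0.993 and 0.983). They were Gbp7 and Coa6 to Igf1 (r = 0.993 and 0.987), Clec2e and Tmf1 to Igf2 (r = 0.980 and 0.974), and Tlr3 and Vat1 to Igfbp3 (r = 0.984 and 0.978). Those closest to Igf1r were Tcf25 and Man2a2 (r = 0.981 and 0.964), and to Igf2r Ap3m2 and Mib2 (r = 0.968 and 0.959). Dnajc4 and Ggt5 were closest to Igfbp2 (r = 0.970 and 0.954), and Armcx4 and Ccr6 to Igfbp5 (r = 0.979 and 0.974).

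Other genes of the axis were taken from 5 lists with 62 entries, of which 54 were measured. Among these 54, 4 were higher and 3 lower in preadipose lines, where 0.407% and 0.781% of all genes were. The other IGF-binding proteins Igfbp1, Igfals and Igfbpl1 were above background in no line. Of 8 proteases that cut binding proteins and inhibitors of such proteases, 1 was higher and 1 lower. The growth hormone axis had 7 measured members, and none passed. In the list of the Igf2 locus and Igf2 mRNA-binding proteins 1 of 5 passed, and in receptor signalling 4 of 31. List medians of the log2 difference ran from -0.02 to 0.11, beside 0.003 for all genes. Pappa, Igf2bp1, Plagl1 and Irs1, given below, did not pass and were chosen after their values were seen.

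Htra1, a secreted serine protease that can cut binding proteins, was 5.59-fold lower in preadipose lines. It had 410 ± 52.5 (Swiss 2), 548 ± 131 (Swiss 8), 601 ± 21.6 (Swiss 9) and 1514 ± 285 (Swiss 19) in preadipose lines, against 5215 ± 506 (Swiss 3), 3509 ± 263 (Swiss 5) and 4168 ± 764 (Swiss 22) in non-adipogenic lines. The classes did not overlap, and Swiss 19 was the highest preadipose line (class log2 difference -1.93 ± 0.27, adjusted p = 0.03). Stc1, a stanniocalcin that inhibits pappalysin, was 2.65-fold higher, with 750 ± 250 (Swiss 2), 808 ± 172 (Swiss 8), 767 ± 62.4 (Swiss 9) and 1035 ± 101 (Swiss 19) in preadipose lines, against 290 ± 41.0 (Swiss 3), 374 ± 45.5 (Swiss 5) and 286 ± 38.8 (Swiss 22) in non-adipogenic lines. The classes did not overlap, and Swiss 19 was again the highest preadipose line (log2 difference 0.71 ± 0.08, adjusted p = 0.0181). On the dimmer Stc1 probe set the classes overlapped and the difference did not pass (0.135, adjusted p = 0.47). Pappa, which encodes pappalysin, did not pass and was above background in 2 of 4 preadipose and 0 of 3 non-adipogenic lines (adjusted p = 0.556).

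Igf2bp3, which binds Igf2 mRNA, was 2.2-fold higher in preadipose lines, at 2491 ± 133 there against 1134 ± 127 in non-adipogenic lines (SD over 4 and 3 lines, log2 difference 0.86 ± 0.07, adjusted p = 0.00892). Its preadipose line means lay between 2375 and 2680 and its non-adipogenic ones between 995 and 1245, and 4 of its probe sets passed. Its relative Igf2bp1 did not pass (adjusted p = 0.0784). Plagl1, an imprinted zinc-finger gene known in mouse to act on the Igf2 locus, was above background in 2 of 4 preadipose and 3 of 3 non-adipogenic lines. It read 43.8 to 203 in preadipose line means and 4719 ± 540 (Swiss 3), 751 ± 179 (Swiss 5) and 868 ± 199 (Swiss 22) in non-adipogenic lines. The difference did not pass the class test (-1.76 ± 0.48, adjusted p = 0.166), and the level in Swiss 3 stood well above that in the other lines.

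In receptor signalling, Grb14, an adaptor that restrains the insulin receptor, was 3.4-fold higher at 4319 ± 666 in preadipose and 1271 ± 371 in non-adipogenic lines (log2 difference 1.44 ± 0.15, adjusted p = 0.0155). Eif4ebp1, the translation repressor controlled by mTOR, was 2.65-fold higher at 9919 ± 764 in preadipose and 3747 ± 568 in non-adipogenic lines (1.29 ± 0.11, adjusted p = 0.00892). Pik3r1, the regulatory subunit of phosphoinositide 3-kinase, was 2.4-fold lower at 2345 ± 431 in preadipose and 5617 ± 959 in non-adipogenic lines (-1.09 ± 0.15, adjusted p = 0.0303). All of these separated the classes without overlap, as the bar plot of these genes shows. Ptpn11, a phosphatase of growth factor signalling, was 1.31-fold lower at 5125 ± 75.6 in preadipose and 6721 ± 491 in non-adipogenic lines (-0.37 ± 0.06, adjusted p = 0.0449). Preadipose line means of Ptpn11 lay within 5066 to 5236. A dimmer Ptpn11 probe set, above background in 4 of 4 preadipose and 3 of 3 non-adipogenic lines, went the other way and did not pass (0.20, adjusted p = 0.526). The dimmest Ptpn11 probe set was lower and did not pass either (-0.20, adjusted p = 0.29). Irs1, the adaptor that Igf1r phosphorylates first, did not pass (-0.55 ± 0.16, adjusted p = 0.194): Swiss 2, Swiss 8 and Swiss 9 read 905 to 1022, while Swiss 19 read 1771, near the 1818 to 1967 of the non-adipogenic lines. In the growth hormone axis, Cish was the member whose classes did not overlap, at 482 ± 97.1 in preadipose and 773 ± 184 in non-adipogenic lines (-0.37 ± 0.11, adjusted p = 0.214).

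**Figure D4:**
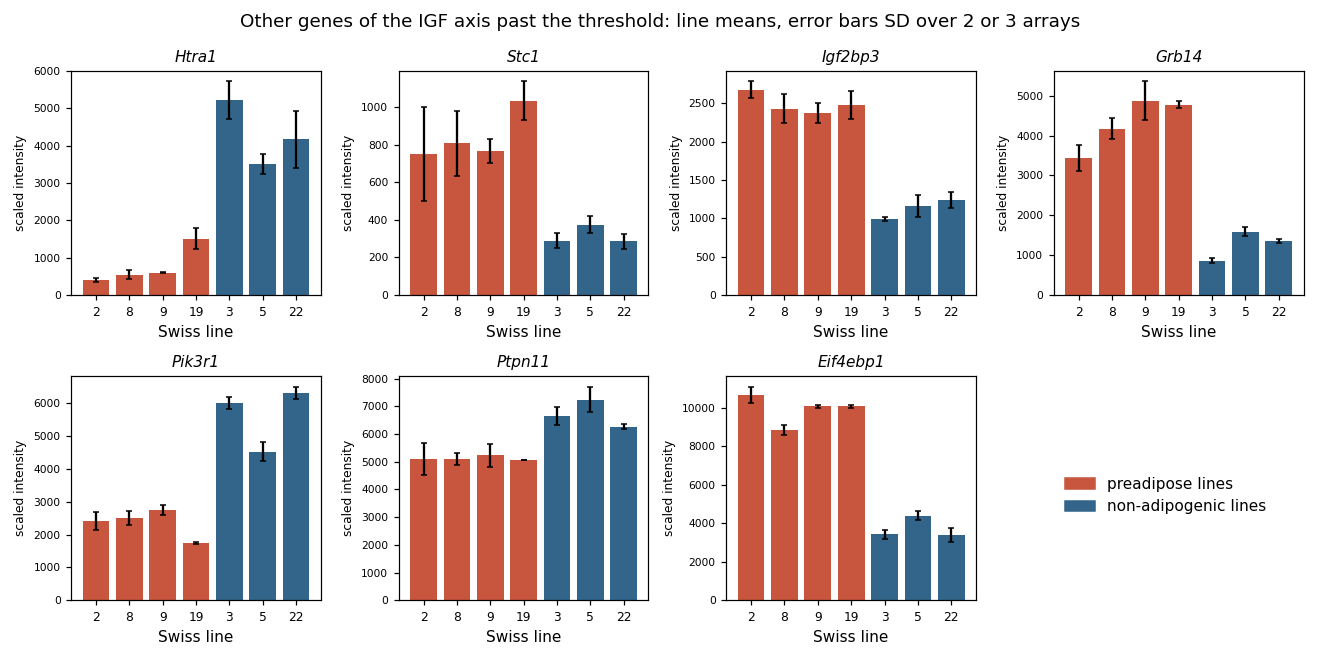
Scaled intensity of the 7 other axis genes that passed the class test, as line means with error bars for the SD over 3 arrays (2 for Swiss 19), for preadipose lines (red) left of non-adipogenic lines (blue); each y axis starts at 0 and has its own range. Htra1, Pik3r1 and Ptpn11 are lower and Stc1, Igf2bp3, Grb14 and Eif4ebp1 higher in every preadipose line.

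Each of these 7 calls, like that of Igfbp4, was lost with arrays centred on medians (adjusted p = 0.465 for Igfbp4, 0.899 for Pik3r1 and 0.912 for the others), without normalization (adjusted p = 0.939 for each) and on bright arrays alone, where the preadipose class is Swiss 19. With centring the log2 difference was 0.43 for Igf2bp3, 0.74 for Eif4ebp1, 0.52 for Stc1, 0.96 for Grb14, -0.92 for Ptpn11, -1.63 for Pik3r1 and -2.27 for Htra1. Without normalization it was 0.30 for Igf2bp3, 0.61 for Eif4ebp1, 0.40 for Stc1, 0.84 for Grb14, -1.04 for Ptpn11, -1.76 for Pik3r1 and -2.40 for Htra1. The 4 genes higher in preadipose lines thus had smaller differences than reported in both settings, and the 3 lower genes larger ones. On bright arrays the log2 differences kept their signs, from -1.41 for Pik3r1 to 1.59 for Grb14. Ptpn11 was called in 21 of the 39 other settings, the fewest of the 7, and Eif4ebp1 in 35, the most. With a line left out, the calls of Igf2bp3 and Eif4ebp1 held each time. That of Grb14 was lost without Swiss 8 or Swiss 22, that of Stc1 without Swiss 8, Swiss 3, Swiss 5 or Swiss 22, those of Htra1 and Pik3r1 without any line other than Swiss 19, and that of Ptpn11 without any line.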

How the data were processed

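RNA of 20 samples was measured on 1 mouse 3' expression array each, with 45101 probe sets, 64 of them controls. The authors deposited 1 linear intensity value per probe set and array. How probes were summarized and whether arrays were scaled is not given in the sources used here; per the labels' protocols, an oligo-dT primer was used and biotin was built in by in vitro transcription of the cDNA. Arrays were not on a common scale. Nothing here gives read depth, and the number of arrays and lines limits the precision.

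Log2(intensity + 32) was quantile-normalized between arrays. In the class comparison each clonal line counted once, as the mean of its arrays, and 4 preadipose against 3 non-adipogenic line means were fitted with limma 3.58.1 (lmFit, eBayes) in R 4.3.3, adjusted by Benjamini-Hochberg over 45037 probe sets, threshold 0.05. F tests within a class and the 21 pairs of lines came from a fit of all 20 arrays with 1 term per line; the pairs were adjusted over probe sets and pairs together. The pseudocount was added to deposited intensities, whose mean was 25.6 on the dimmest array. It thus compresses differences of dim probe sets and, on dim arrays, also of probe sets above background. A log2 difference can therefore be smaller than the log2 of the fold printed beside it. This was so for Igfbp6 (4.17-fold, log2 difference 1.09) and Igfbp4 (9.68-fold, 2.46), but not for Igfbp7 (1.54-fold lower, -0.71). Scaled intensity is the deposited intensity brought to a mean of 500 per array after trimming 2% at each end, and folds are ratios of class means of it. Background of a line is the 95th percentile of 27 unspiked bacterial controls, averaged over its arrays; where a class had lines at or below it, those were set to it and the fold is a lower bound.

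Gene names came from the array's annotation, with 34945 probe sets of 1 symbol, 932 of several and 9160 not named here. The probe set with the highest mean among those with 1 symbol stood for a gene. Named genes were all members, the 2 genes with the closest line profile to each, and from each list every gene past the threshold or, with none, those whose line means did not overlap; exceptions are said in the text. The members and lists were chosen with earlier results of these data known. Sequences came from RefSeq (GRCm38.p6), where all 10 members had a window.

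Alternatives changed the pseudocount (8, 100), the normalization, the filter on dim probe sets, the unit of the fit and the brightness part, left out an array or a line, or added the replicate number as a block. The numbering of arrays did not pair lines: over 57 pairs of arrays with the same number, deviations from line means correlated at -0.088 to 0.126. The fits were also run on simulated data with line effects, class effects and noise between arrays. The simulation held no difference in array brightness, so it cannot show how the fits deal with that.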

Additional observations from a re-analysis of the deposited data

Results flagged for a closer look

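Among the 4 preadipose line means of Igfbp5, on normalized log2 values, Swiss 9 stood apart: its gap to the nearest line was 0.843 of the whole range, above Dixon's 95% critical value for 4 values. Its scaled intensity was 328 ± 78.6, beside 259 ± 19.3 (Swiss 2), 215 ± 55.2 (Swiss 8) and 217 ± 56.2 (Swiss 19), with SD over arrays. It was 1 of 37 groups examined, and chance sets apart about 1 in 20. The preadipose lines did not differ for Igfbp5 by the F test (limma, adjusted p = 0.613).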

How the results depend on the processing

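Of 39 alternatives, 20 left out an array, 7 left out a line and 12 changed another choice. Of the 18 genes followed (10 members, the 7 other called genes and Cish), only Igfbp3 kept its side of the threshold and its sign in all 39; it passed in none, and its difference ran from -0.94 to -0.11. Igfbp4 passed in 36, and its log2 difference ran from 1.76 to 3.21. Of the 10 member genes, 2 passed the class test with a pseudocount of 8, 0 with arrays centred on medians, 0 without normalization, 4 with the line as a random block (Igf1, Igfbp4, Igfbp6 and Igfbp7) and 0 on bright arrays. Of the 29 member probe sets, 0 passed with centring, 0 without normalization, 11 with the random block, 3 on dim and 0 on bright arrays, and 3 to 5 with a line or array left out (3 without Swiss 5 and 3 without Swiss 22). Over the whole table the calls numbered 369 as reported, 3 with centring, 2 without normalization, 90 with linear scaling, 665 with dim probe sets left out, 3645 with the random block, 149 on dim and 0 on bright arrays, and 46 to 623 with a line left out. The random block took arrays as units, with a correlation within lines that was shared by all probe sets. It can thus be too lenient for genes whose lines differ more than that, and its calls are weaker evidence of a class difference. Members and table did not always move together: with linear scaling 6 Igfbp4 probe sets passed, and with dim probe sets left out or without Swiss 19 (623 calls) 5. The median of all differences was -0.12 without normalization and 0.01 as reported. F tests among non-adipogenic lines passed for 7 genes (16 probe sets) with centring, 7 (18) without normalization, 4 probe sets with Swiss 3 by its bright array, a choice added after seeing the data, and 3 to 5 genes (4 to 8 probe sets) with an array left out. Without normalization 26 probe sets passed among preadipose lines and 137 gene comparisons between pairs of lines. With the replicate block, which the numbering does not support as a pairing (5 of 20 arrays correlated best with their own number), 1 gene and 5 probe sets passed between classes, 6 and 4 genes within them, and 84 pair comparisons.

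The sign turned for members that did not pass: Igfbp5 (-0.001 with a pseudocount of 100, -0.13 with centring, -0.26 without normalization, -0.028 on bright arrays, -0.095 to 0.068 with a line or array left out), Igfbp2 (-0.10 without normalization, -0.10 with the brightness block, -0.16 on dim and -0.048 on bright arrays, -0.033 to 0.105 left out), Igf1r (0.071 with the brightness block, 0.58 on bright arrays, -0.247 to 0.098 left out), Igf2r (0.16 on bright arrays, -0.121 to 0.082 left out) and Igf2 (-0.007 without Swiss 19, up to 0.584 left out). Fits on 1 brightness part leave 1 line in a class, assumed to vary like the others; the cause of the other changes was not tested. Probe sets near background, such as those of Igfbp2 and the dim ones of Igf2 and Igfbp7, have little signal to order.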

Other observations

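Ghr, the growth hormone receptor, differed between lines of both classes. It averaged 1969 ± 949 in preadipose and 3464 ± 915 in non-adipogenic lines (SD over 4 and 3 lines), with a class log2 difference of -0.71 ± 0.31 (SE) that did not pass (limma, adjusted p = 0.404). Its F tests passed among preadipose lines (adjusted p = 6.76e-06) and among non-adipogenic lines (adjusted p = 0.000623). Grb10, an imprinted relative of Grb14 that also restrains receptor signalling, differed among preadipose lines (F test, adjusted p = 6.97e-09) and among non-adipogenic lines (adjusted p = 0.00206). It did not pass between classes (-0.55 ± 0.41, adjusted p = 0.704). Its dimmer probe sets passed the F test neither among preadipose lines (adjusted p = 0.0986 and 0.175) nor among non-adipogenic lines (adjusted p = 0.566 and 0.758). Akt1, a kinase downstream of the receptor, had a class difference of 0.68 ± 0.15 without overlap of line means and did not pass (adjusted p = 0.108). These genes were chosen after their values were seen.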
